A study of Mus musculus with 4 samples.

Results

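Pancreatic polypeptide (Ppy), peptide YY (Pyy), neuropeptide Y (Npy) and somatostatin (Sst) are the 4 peptide hormone genes described here, out of 32288 features in the count tables. They were chosen by name, as the PP-fold peptide family together with somatostatin, and not by a ranking of values, though earlier results of these data were known. All 4 were present in the tables, and each was followed in every mouse across the cell labels that the authors deposited. The data are single-cell RNA profiles of cells sorted for EYFP from the pancreata of 4 mice, and each value counts RNA molecules, not peptide. The 10x Genomics 3' chemistry was used, in which each captured RNA molecule is counted once by a unique molecular identifier (UMI). Of 21140 cells, 13362 are in the authors' matrix of EYFP+ cells, and the rest have no cell type label.

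All 4 mice were of a strain backcrossed into CD-1 and carried Ptf1aCre-ERTM;ROSAYFP/+, a tamoxifen-activated Cre recombinase under the acinar gene Ptf1a together with a Cre-dependent yellow fluorescent reporter. All received tamoxifen by gavage before injury, and injury was started at 10 weeks of age. Caerulein, a cholecystokinin analogue that overstimulates acinar cells and causes pancreatitis, was given for 2 weeks in 2 mice (2wk-1 and 2wk-2) and for 4 weeks in the other 2 (4wk-1 and 4wk-2). No untreated mouse was analysed here, so levels before injury are unknown. The promoter limits the model: the reporter marks cells that recombined under Ptf1a, or whose ancestors did. The libraries also held cells without an EYFP UMI. Each library's label gives 1 identifier without saying whether animals were pooled.

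The PP-fold peptides are short hormones that fold into a hairpin of a polyproline-like helix against an alpha helix and act on the Y family of G protein-coupled receptors. Ppy is best known from the gamma (PP) cells of the islet, Pyy from L cells of the ileum and colon and from early islet cells, and Npy from neurons and, at low levels, from developing islets. Somatostatin, which is made by delta cells of islet and gut, acts on a separate receptor family and inhibits the release of most other gut and islet hormones. All 4 peptides are cut from larger precursors by prohormone convertases (Pcsk1 and Pcsk2). The PP-fold peptides are also trimmed by carboxypeptidase E (Cpe) and capped by an amide that the enzyme Pam makes from a terminal glycine.

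The coding sequences of the mature hormones are shown because the family is defined by them and because near-identical copies could share reads. In genome build GRCm38, Ppy (ENSMUSG00000017316) lies on the minus strand at chr11:102099930-102101319 and Pyy (ENSMUSG00000017311) on the same strand at chr11:102106676-102107832. The 2 genes are separated by 5356 bases that hold 0 annotated genes. Npy (ENSMUSG00000029819) lies on the plus strand at chr6:49822710-49829507 and Sst (ENSMUSG00000004366) on the minus strand at chr16:23889573-23890958. No annotated gene overlaps any of them. The hormone stretches below come from the GENCODE coding sequence of each gene, and the capitals mark the glycine, lysine and arginine codons at which the 3 PP-fold precursors are cut and amidated. For Sst the last 14 codons are shown, which encode somatostatin-14 and carry no such signal.
Ppy: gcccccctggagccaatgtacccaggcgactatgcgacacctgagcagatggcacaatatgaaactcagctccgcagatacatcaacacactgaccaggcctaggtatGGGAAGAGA
Pyy: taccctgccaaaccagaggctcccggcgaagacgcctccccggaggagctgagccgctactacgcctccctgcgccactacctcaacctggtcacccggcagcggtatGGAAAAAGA
Npy: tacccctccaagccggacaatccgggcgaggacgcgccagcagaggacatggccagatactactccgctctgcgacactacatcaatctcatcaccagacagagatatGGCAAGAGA
Sst: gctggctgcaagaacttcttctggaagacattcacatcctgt
Over the 36 codons of the mature peptide, Pyy and Npy encoded the same residue at 24 (66.7%), Ppy and Npy at 18 (50%) and Ppy and Pyy at 16 (44.4%). At the base level the longest run shared by any pair of the 3 annotated transcripts was 10 bases, so the neighbouring genes Ppy and Pyy share no long stretch of transcript.

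Of the 21140 cells in the 4 libraries (4715 to 6255 per mouse, 72459531 to 103610807 UMIs per mouse), the authors gave 13362 one of 8 cell types and 2586 tuft or enteroendocrine (EEC) cells one of 9 subtypes. Median depth was 12528 to 17922 UMIs per subtyped cell, and both 4-week mice were shallower than both 2-week mice. The same barcode occurred in more than 1 library for 139 cells, of which 4 were among the 1269 cells of the 5 endocrine subtypes. Leaving these cells out, an alternative chosen after seeing the data, moved none of the 36 values tested across a threshold or by more than the spread between mice. Cells named Delta numbered 38, 45, 32 and 29 in mice 2wk-1, 2wk-2, 4wk-1 and 4wk-2, and values below follow that order unless mice are named. Ppy+ cells numbered 40, 20, 45 and 35, of which 138 of 140 were also typed EEC. The EYFP transcript was present at 265 to 345 counts per 1000000 UMIs (CPM) in Delta cells and 287 to 310 CPM in Ppy+ cells. The labels come from clustering of the same counts, so differences between labels are descriptions and were not tested.

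As a background, 3428 cells without any deposited label that held leukocyte transcripts (810 to 911 per mouse, median 4820 UMIs) were measured in the same way. Of these, 3099 held no EYFP UMI. Whether their hormone UMIs came from free RNA was not tested. In these cells, which are no known source of Ppy, Pyy or Sst, Ppy stood at 9.19, 9.55, 40.5 and 23.1 CPM and was seen in 5.83 to 11.1% of cells. Pyy stood at 31.6, 29.5, 46.9 and 48.4 CPM (12.8 to 18.2% of cells) and Sst at 35.9, 28.3, 20.6 and 96.1 CPM (7.25 to 17.9% of cells). A share of cells with at least 1 UMI therefore says little on its own, and cells with 10 or more UMIs of a gene are counted below. In the background, 0, 0, 3 and 0 cells reached 10 UMIs of Ppy, 0, 0, 3 and 5 of Pyy, and 0, 1, 2 and 16 of Sst, so most of the few Sst cells came from mouse 4wk-2 (1.98% of its 810 cells). This class is the low end of the unlabelled cells. Over all 7778 cells without a label, which include hormone-rich cells, Ppy stood at 285, 16.7, 623 and 697 CPM, Pyy at 574, 1037, 494 and 864 CPM, and Sst at 744, 792, 590 and 961 CPM, with 89, 155 and 198 cells at 10 or more UMIs of Ppy, Pyy and Sst.

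**Figure D1:**
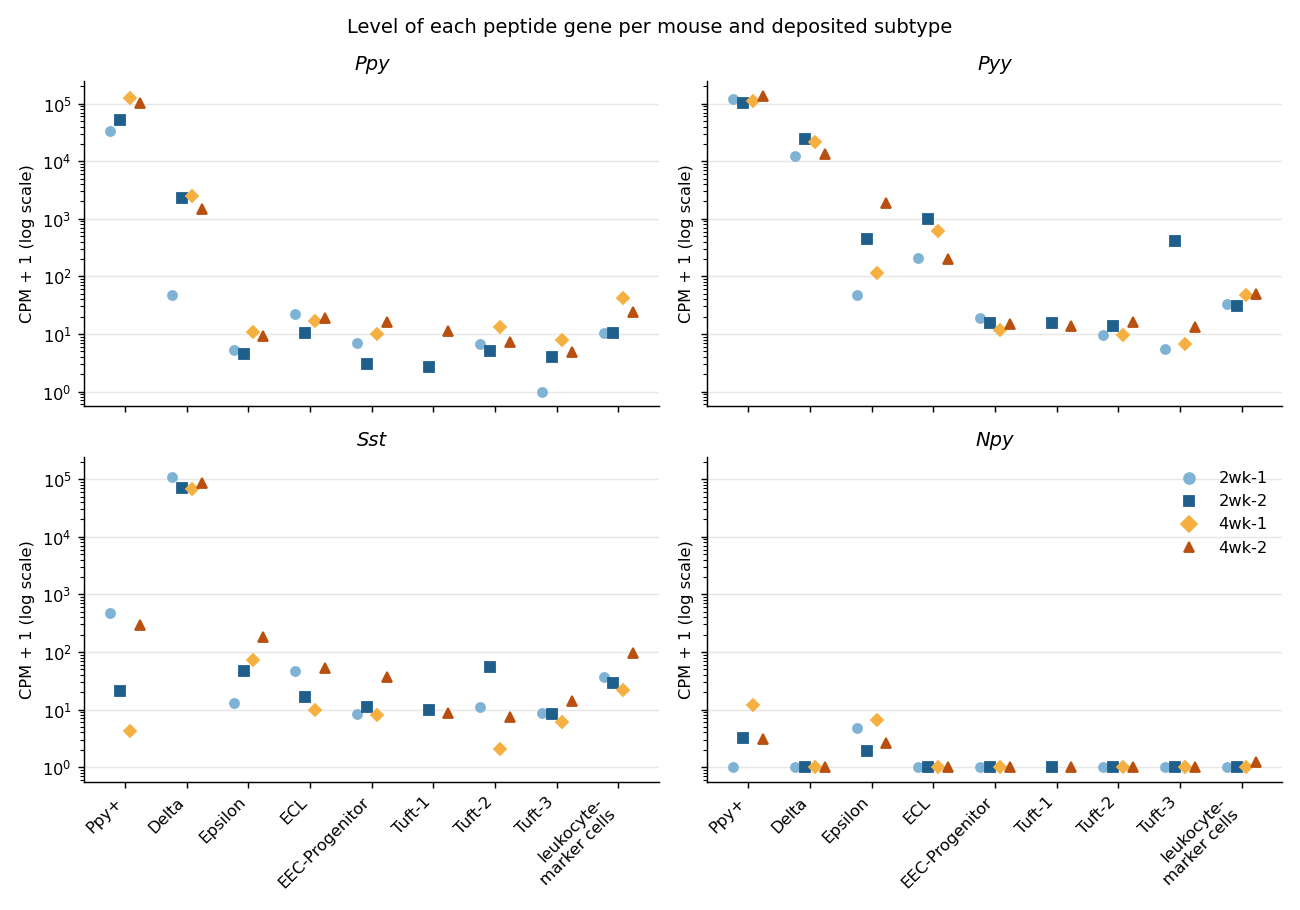
Level of Ppy, Pyy, Sst and Npy (CPM + 1, log axis) in each mouse for the deposited tuft and endocrine subtypes and for unlabelled leukocyte-marker cells; each point is 1 mouse with at least 20 cells in the label. Ppy and Pyy were highest in Ppy+ cells and second in Delta cells, Sst was highest in Delta cells, and Npy stayed near 0 throughout.

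Pyy, not Ppy, was the peptide common to the whole Ppy+ label. Every one of the 140 Ppy+ cells held Pyy, and the lowest cell held 31 UMIs of it. Its level was 118564, 104041, 111854 and 136763 CPM (117805 ± 13962, SD, n = 4). The median Ppy+ cell spent 10.3, 8.31, 11.3 and 14.1% of its UMIs on Pyy, and the highest cell 32.1%. The 4 mice were close to each other, and the 2 treatment times overlapped.

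Ppy itself was in many but not all cells that carry its name. Its level in the Ppy+ label was 33477, 52071, 124661 and 102711 CPM (78230 ± 42592, SD, n = 4), with both 4-week mice above both 2-week mice. Among the 140 cells, 39 held no Ppy UMI, 9 held 1 or 2, 4 held 3 to 9, 10 held 10 to 99, 19 held 100 or more but under 1000, and 59 held 1000 or more. Pooled over mice, the distribution thus had a high and a near-zero part with fewer cells between them. In mouse 2wk-1 it was more graded, with 12, 5, 2, 6, 7 and 8 cells in the same order of counts. By mouse, 21 of 40 cells (52.5%, exact binomial 95% interval 36.1 to 68.5), 7 of 20 (35.0%, 15.4 to 59.2), 34 of 45 (75.6%, 60.5 to 87.1) and 26 of 35 (74.3%, 56.7 to 87.5) held 10 or more Ppy UMIs, 88 of 140 (62.9%) in all. These intervals cover counting error only. All 88 also held 10 or more Pyy UMIs.

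The balance between the 2 neighbouring genes differed between mice. The ratio of Ppy to Pyy UMIs summed over the label was 0.282, 0.501, 1.12 and 0.751. Ppy exceeded Pyy in 4, 2, 24 and 11 cells, which is 41 of 140. In the cell richest in it, Ppy took 32.6% of all UMIs.

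**Figure D2:**
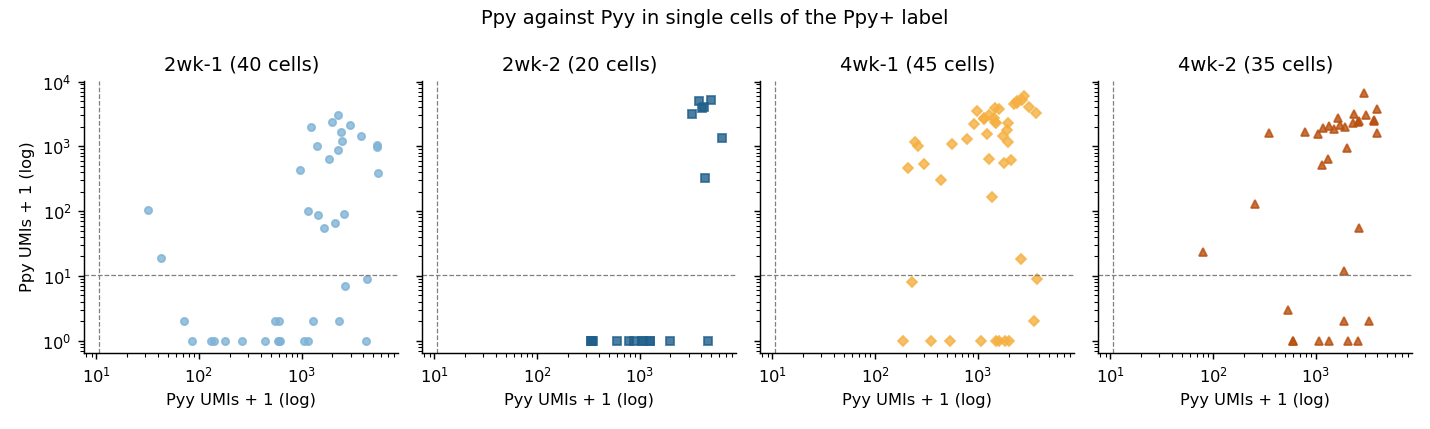
Ppy against Pyy in each cell of the Ppy+ label (UMIs + 1, both axes log), 1 panel per mouse; dashed lines stand at 10 UMIs. Every cell lies to the right of the Pyy line, while cells lie on both sides of the Ppy line, with 21, 7, 34 and 26 cells at 10 or more Ppy UMIs.

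Cells of the Ppy+ label that held 10 or more Ppy UMIs differed from the others in several genes, given here as a description without a test, since Ppy was used to name the label and to split it. In all 4 mice the cells with 10 or more Ppy UMIs had more Pyy (150092 against 79904, 154955 against 61759, 123655 against 85661 and 143798 against 115649 CPM). Ghrl, the ghrelin gene of epsilon cells, was lower in them in all 4 mice, at a mean of 9325 against 38229 CPM. Cck, which encodes cholecystokinin, was also lower in all 4, at 103 against 1992 CPM. The prohormone convertase Pcsk2 (1480 against 729 CPM), the convertase inhibitor Pcsk1n (4151 against 1637), the Pcsk2 chaperone Scg5 (1439 against 1107) and the granule protein Chga (911 against 553) were higher in all 4 mice. The other 3 listed granule genes did not share 1 direction, with Scg2 higher in 3 mice (504 against 323 CPM), and Chgb (1331 against 1898) and Scg3 (337 against 341) higher in 2 and lower in 2. Cpe (845 against 1621) and Pam (423 against 680), which complete the peptide ends, were lower in all 4. Of the other 2 listed processing genes, Dpp4, a peptidase that trims Pyy and Npy, was lower in all 4 (33.4 against 65.6 CPM) and Pcsk1 higher in 3 (185 against 177 CPM).

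Among listed endocrine transcription factors, Isl1 (495 against 1053), Pax6 (363 against 549), Insm1 (162 against 315), Fev (36.3 against 96.5) and Etv1 (199 against 467) were lower in the cells with 10 or more Ppy UMIs in all 4 mice. The EYFP transcript was lower in all 4 mice, at 258 against 364 CPM. CPM are shares of all UMIs. Ppy and Pyy took more of them in the cells with 10 or more Ppy UMIs (123302 and 143125 CPM against 46.7 and 85743 CPM), while Ghrl took less. The part of this in the lower values of other genes was not tested.

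**Figure D3:**
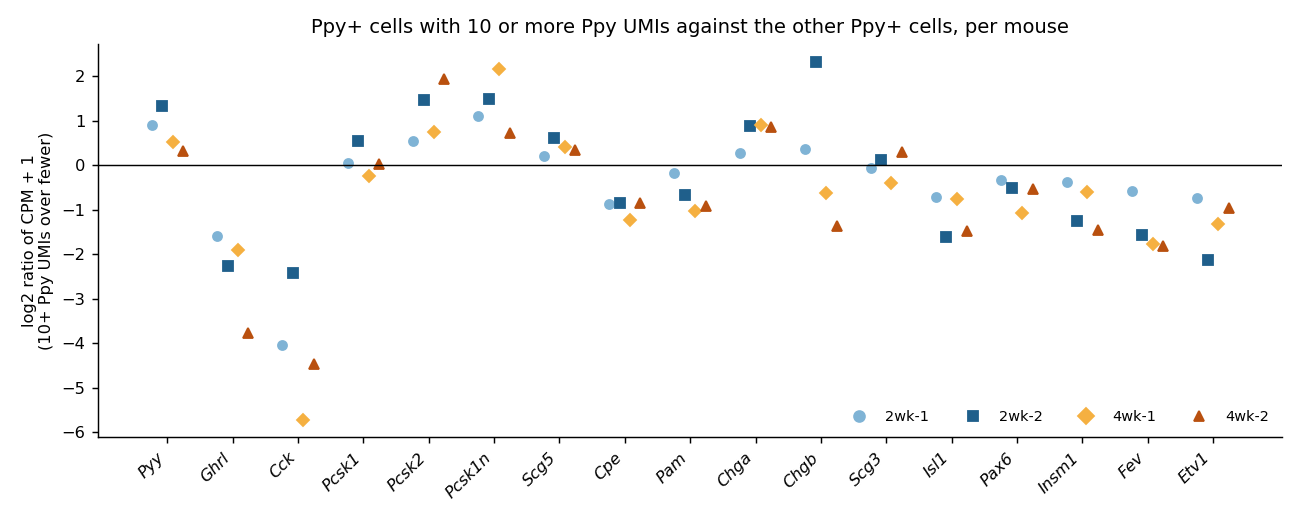
Log2 ratio of CPM + 1 between Ppy+ cells with 10 or more Ppy UMIs and the other Ppy+ cells, 1 point per mouse, for Pyy and for hormone, processing, granule and transcription factor genes chosen for display after their values were seen. Pyy, Pcsk2, Pcsk1n, Scg5 and Chga lie above 0 in all 4 mice, and Ghrl, Cck, Cpe, Pam, Isl1, Pax6, Insm1, Fev and Etv1 lie below 0 in all 4.

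Counted with Ghrl at 10 or more UMIs each, the 140 Ppy+ cells were mostly of 3 kinds. Ppy, Pyy and Ghrl together were held by 48 cells, Pyy and Ghrl without Ppy by 44, and Ppy and Pyy without Ghrl by 38. The last kind was uneven between times, with 2 of 40, 1 of 20, 21 of 45 and 14 of 35 cells (5.0, 5.0, 46.7 and 40.0%), so 35 of the 38 cells came from the 4-week mice. This difference was not tested. Pyy was the only 1 of the 4 genes in 8 cells, and Sst joined Ppy and Pyy in 2 cells, 1 of them with Ghrl. Sst stood at 471, 20.4, 3.19 and 293 CPM in the label, with 2 cells of 100 or more Sst UMIs setting the 2 higher values. Ghrl was also counted in the leukocyte-marker cells (234 CPM on average, with a UMI in 42.3% of them), against 20619 ± 10206 CPM (SD, n = 4) in Ppy+ cells. Of the 3428 leukocyte-marker cells, 50 held 10 or more Ghrl UMIs, and the source of these UMIs was not tested.

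Delta cells were defined by somatostatin, and most held Pyy as well. Sst stood at 107531, 70377, 68537 and 86571 CPM (83254 ± 18100, SD, n = 4), and 142 of 144 cells held at least 1 UMI. Hhex, the homeobox factor that delta cells need to keep making somatostatin, was present in 99.3% of Delta cells at 1557 CPM, against 112 CPM in Ppy+ cells. Rbp4, the other delta marker listed, was high in Delta cells (7914 CPM) but higher in Ppy+ cells (17675 CPM), so it did not single out the Delta label here.

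Pyy in Delta cells stood at 12125, 24682, 21160 and 13335 CPM (17826 ± 6077, SD, n = 4). The leukocyte-marker cells of the same mice had 29.5 to 48.4 CPM. At 10 or more UMIs it was present in 73.7, 80.0, 78.1 and 93.1% of cells, 116 of 144 in all. Pyy and Sst both reached 10 UMIs in 113 of 144 Delta cells. Per mouse, 91.2 ± 9.40% of Delta cells (SD, n = 4) held both at 1 UMI or more, 79.2 ± 9.65% at 10 or more, and 82.9 ± 9.52% when every cell was thinned to 1500 UMIs. Co-detection was thus frequent at each threshold.

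**Figure D4:**
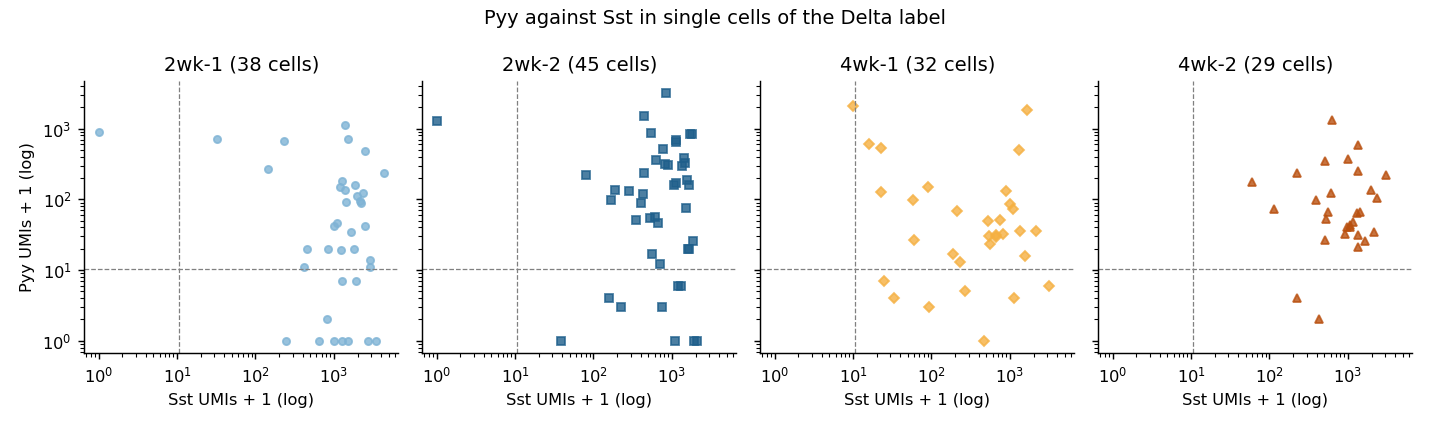
Pyy against Sst in each cell of the Delta label (UMIs + 1, both axes log), 1 panel per mouse; dashed lines stand at 10 UMIs. Most cells lie in the upper right part of each panel, with 113 of 144 cells at 10 or more UMIs of both genes.

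Ppy was rare in Delta cells. It stood at 46.6, 2261, 2504 and 1501 CPM, and only 8 of 144 cells held 10 or more UMIs. All 8 also held 10 or more UMIs of both Pyy and Sst, and 4 of them held 100 or more Ppy UMIs, so the label's level rests on a handful of cells. At 1 UMI or more Ppy was seen in 15.6 to 20.7% of Delta cells, against 5.83 to 11.1% in the shallower background cells. Split by Ghrl as well, 58 Delta cells held Pyy and Sst, 47 held Pyy, Sst and Ghrl, 20 held Sst and Ghrl, and 8 held Sst alone.

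Delta cells with 10 or more Pyy UMIs differed from the rest in the same direction in all 4 mice for several listed genes, again as a description, and the rest numbered only 10, 9, 7 and 2 cells by mouse. Iapp, the amyloid peptide of beta and some delta cells (513 against 132 CPM), Pcsk2 (922 against 308), Pcsk1n (939 against 469) and the granule protein Scg2 (139 against 23.3) were higher. Chga (786 against 1327) and Isl1 (1483 against 1878) were lower. Sst itself was higher in 2 mice and lower in 2 (84736 against 69416 CPM).

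Over all 1208 cells typed EEC, 94 cells held 10 or more Ppy UMIs and all 94 also held 10 or more Pyy UMIs. Of 149 EEC cells with 10 or more Sst UMIs, 114 held 10 or more Pyy UMIs. Pyy was therefore the shared partner, in every Ppy-rich cell and in most Sst-rich ones. By share of all UMIs in the libraries, 76.9, 92.2, 86.6 and 78.7% of Ppy and 74.8, 56.2, 79.9 and 73.5% of Pyy lay in Ppy+ cells. Delta cells held 81.1, 75.1, 65.2 and 58.0% of Sst and 6.93, 17.6, 7.61 and 5.14% of Pyy.

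Outside these 2 labels, Pyy reached the highest levels of the 4 members in another endocrine subtype. In cells with the label ECL (217 cells) Pyy stood at 208, 974, 611 and 201 CPM, and 24 cells held 10 or more UMIs. This lay above the leukocyte-marker cells in every mouse, but above the level over all unlabelled cells only in 4wk-1. Epsilon cells (377), the ghrelin-producing subtype, had Pyy at 46.7, 438, 112 and 1844 CPM, and the highest value rests largely on 1 cell with 1000 or more UMIs. The 391 EEC-Progenitor cells, which express the endocrine inducer Neurog3, had Ppy at 5.87, 2.07, 8.93 and 15.3 CPM and Pyy at 17.6, 14.5, 10.9 and 13.6 CPM, below the background cells of the same mouse for both genes. None of them held 10 UMIs of Ppy or Pyy, and 1 held 10 or more of Sst. In order, Pyy was highest in Ppy+ and then Delta cells, with no overlap between mice of these 2 labels. ECL and Epsilon cells overlapped with each other below them, and EEC-Progenitor cells lay lower still, with no mouse reaching the lowest Epsilon value. Ppy in ECL cells (9.38 to 20.8 CPM), Epsilon cells (3.49 to 9.82) and EEC-Progenitor cells did not exceed the range of the background cells over all mice, though in mouse 2wk-1 ECL cells (20.8 CPM) lay above that mouse's background (9.19 CPM). Its order among these 3 labels is not resolved. Sst followed Delta cells with Ppy+ cells (3.19 to 471 CPM) and Epsilon cells (12.0, 45.4, 71.8 and 181 CPM), whose mice overlapped with each other and with the background cells.

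Npy was close to absent. The 4 libraries held 93, 19, 78 and 87 Npy UMIs in total, and MucinDuctal cells, a non-endocrine label, held 61.3, 73.7, 66.7 and 67.8% of them. There, 96 of 3983 cells (2.41%) had a UMI, at 6.60, 0.378, 2.90 and 2.53 CPM, and the highest cell had 18. Among endocrine subtypes, Npy was seen in 15 of 377 Epsilon cells (3.98%, at most 3 UMIs) and 3 of 140 Ppy+ cells (at most 7 UMIs). None of 144 Delta cells (which allows a share of up to 2.08%), 217 ECL cells (1.38%) or 391 EEC-Progenitor cells (0.767%) had a UMI, and these limits are on cells with a UMI, not on cells expressing Npy. One of 3428 leukocyte-marker cells did. Npy was too low to be tested over time in EEC cells or any of the 5 endocrine subtypes, MucinDuctal cells were not fitted, and its absence from Delta cells is a statement about these cells at this depth.

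Treatment time was the only contrast with replicates, 2 mice against 2, and it was tested across all genes of each label with edgeR's quasi-likelihood test on counts summed per mouse, adjusted by the Benjamini-Hochberg method. The p-values measure the spread between these mice only. In Ppy+ cells, 10 of 6283 genes passed an adjusted p of 0.05 (0.159% of genes tested; 6.59% at an unadjusted p), and Ppy was 1 of the 3 members tested that did. Ppy was 1.57 ± 0.23 higher at 4 weeks (log2, SE, edgeR adjusted p = 0.0466), and its 2 treatment times did not overlap, as for 8.94% of genes tested in that direction. The call is fragile. Without edgeR's robust option its adjusted p was 0.185, and without the 5% of cells with the most UMIs it was 0.277, with a log2 difference of 1.78. DESeq2 gave 1.59 with an adjusted p of 1.728e-05, and leaving out each mouse in turn gave 1.29 to 1.97.

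Summed Ppy depends on the share of cells rich in it and on the level within them, and the part of each was not tested. The share of Ppy+ cells with 10 or more Ppy UMIs averaged 43.8% at 2 weeks and 74.9% at 4 weeks, a difference that the exact permutation test cannot call with 2 mice against 2 (p = 0.333, the smallest it allows, two-sided). Within the cells holding 10 or more Ppy UMIs, Ppy stood at 60719, 114774, 180792 and 136923 CPM, again with no overlap between times. This level was given no test. The 4-week mice, with the higher shares, were the ones with fewer UMIs per cell.

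Other genes in Ppy+ cells moved with time as well. Gcg, the glucagon gene of alpha cells, had 0, 0, 6446 and 4443 CPM, and was present in 0 of 40, 0 of 20, 12 of 45 and 4 of 35 cells. The counts of 0 allow up to 7.5% and 15% of cells with a Gcg UMI in the 2-week mice, which does not limit the share of cells expressing it at a lower level. Gcg was called (edgeR adjusted p = 8.189e-07), though it entered the test only through the 4-week mice. Pooled over mice, it stood at 5572 CPM at 4 weeks, 1921 times a floor of 3 UMIs over both 2-week mice. That floor covers the counting of UMIs only. All Gcg UMIs lay in 16 of 140 cells, so the ratio is no lower limit on the change. Of the 13 cells with 10 or more Gcg UMIs, 11 held 10 or more Ppy UMIs and all 13 held 10 or more Pyy UMIs. Hhex fell by 2.08 ± 0.27 on the log2 scale (201, 172, 47.9 and 28.9 CPM, edgeR adjusted p = 0.005465).

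The pancreatic enzyme and acinar genes Cpb1, Reg2, Try10 and Cuzd1, named after their values were seen, fell among the 10 called genes. None of the 5 listed acinar markers (Cpa1, Cela1, Prss2, Ctrb1 and Pnlip) was among those 10. All 5 were detected in Ppy+ cells, and their sum was 12039 and 31334 CPM at 2 weeks and 8583 and 5703 CPM at 4 weeks. The part of these transcripts in the Ppy difference was not tested. Leukocyte markers summed to 23.6 and 58.8 CPM at 2 weeks and 12.8 and 8.24 CPM at 4 weeks in the same cells.

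Pyy did not pass the test in Ppy+ cells. It was 0.32 ± 0.15 higher at 4 weeks (log2, SE, edgeR adjusted p = 0.756), with overlapping times. Sst in that label differed by -0.66 (adjusted p = 0.980), and its sign turned to 2.91 without mouse 2wk-1 and 0.39 without 4wk-1. In Ppy+ cells the list of peptide processing genes had 0 of 7 called, with Scg5, Pcsk1 and Pcsk1n reaching an unadjusted p under 0.05 only, and with a median log2 difference of 0.53 beside 0.00 over all genes. Secretory granule genes had 0 of 4 called, with a median of 0.64. Endocrine transcription factors had 1 of 12 called, Hhex, where 0.159% of all genes tested in the label were called. Other hormones had 1 of 6, Gcg, which entered the test only through the 4-week mice, so this count is not set against that share.

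In Delta cells 1 of 6494 genes was called (0.0154%, and 6.14% at an unadjusted p), and none of the 3 members tested was among them. Sst differed by -0.19 ± 0.35 (log2, SE, edgeR adjusted p = 0.984), Pyy by -0.06 ± 0.57 (0.996) and Ppy by 0.85 ± 2.08 (0.987). The errors were wide for Pyy and wider still for Ppy. Their signs rest on single mice: without 2wk-1, Sst turned to 0.18 and Ppy to -0.12, and Pyy turned to 0.47 without 2wk-2 and to 0.24 without 4wk-2. Without 2wk-2, whose 4 cells with 10 or more Ppy UMIs set its level, Ppy in Delta cells was 5.38 higher at 4 weeks. That fit had 1 mouse at 2 weeks, so its p cannot measure a spread there. At 4 weeks 2 cells of 4wk-1 and 1 of 4wk-2 held 10 or more Ppy UMIs. None of 6 tested processing genes, 10 transcription factors or 4 other hormones was called in Delta cells.

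**Figure D5:**
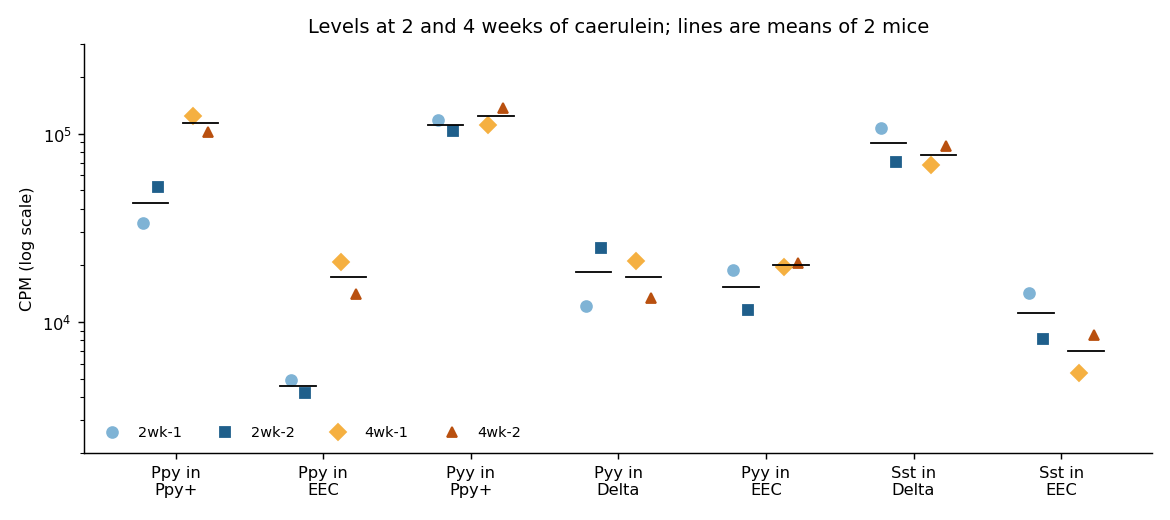
Levels (CPM, log axis) at 2 and 4 weeks of caerulein. Shown are Ppy in Ppy+ and all EEC cells, Pyy in Ppy+, Delta and all EEC cells, and Sst in Delta and all EEC cells. Points are mice and lines the means of 2 mice. Ppy in Ppy+ and EEC cells and Pyy in EEC cells are higher in both 4-week mice, while Pyy overlaps between times in Ppy+ and Delta cells and Sst in Delta cells.

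Across all EEC cells, where the share of each subtype counts as well as its level, Ppy stood at 4902, 4187, 20756 and 14108 CPM. The log2 difference was 2.03 ± 0.26 and did not pass with edgeR (adjusted p = 0.315, unadjusted p = 0.000162), where 0 of 11869 genes passed (0%) against 4.04% at an unadjusted p and 14 genes with DESeq2. Ppy was 1 of those 14 (DESeq2 adjusted p = 5.231e-14). With edgeR the log2 difference was 2.22 without 2wk-1 and 1.87 without 2wk-2. These fits had 1 mouse at 2 weeks, so their p cannot measure a spread there and is not given. The times did not overlap, which held in that direction for 8.85% of genes. Cells with 10 or more Ppy UMIs made up 8.33, 2.79, 11.9 and 9.31% of EEC cells (exact permutation p = 0.333, two-sided), and here the times were separate too. Pyy stood at 18971, 11568, 19595 and 20527 CPM (log2 0.46 ± 0.28, edgeR adjusted p = 0.986), with both 4-week mice above both 2-week mice here too, and Sst at 14304, 8111, 5381 and 8548 CPM (log2 -0.63 ± 0.38, adjusted p = 0.986). Without 2wk-1 the log2 difference of Pyy was 0.94, and without 2wk-2 that of Sst was -1.03, so the size of each rests on the mouse left out.

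No member was called in the 3 remaining endocrine labels. In Epsilon cells 0 of 9498 genes passed with edgeR (0%, 3.79% at an unadjusted p, and 1 gene with DESeq2). Ppy had a log2 difference of 1.37 ± 0.54 (unadjusted p = 0.0267, edgeR adjusted p = 0.999) at levels of 3.49 to 9.82 CPM, below the background cells of the same mouse in all 4. Both 4-week mice were above both 2-week mice for Ppy and for Sst (2.43 ± 0.80, adjusted p = 0.999), as for 3.87% of genes. The Sst order rests on single cells, since 1 cell held 165 of the 216 Sst UMIs of 4wk-2 and 1 cell 99 of the 117 of 4wk-1. Background Ppy in leukocyte-marker cells was likewise higher in both 4-week mice, and its part in the Epsilon difference was not tested. In ECL cells 6 of 7349 genes passed (0.0816%, 5.17% unadjusted) and neither Pyy (-0.59, adjusted p = 0.995) nor Sst (0.20, 0.997) did. Without 2wk-2, Pyy in ECL cells turned to 0.98, and in Epsilon cells Pyy (2.25 higher at 4 weeks) turned to -0.65 without 4wk-2. In EEC-Progenitor cells 4 of 8833 genes passed (0.0453%, 5.07% unadjusted), without Pyy (-0.37, adjusted p = 0.982) or Sst (1.22, 0.981).

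Receptors for these peptides were scarce. Of the Y receptors, Npy1r, which binds Npy and Pyy, was found in 7.86% of Ppy+ cells at 7.85 CPM, and Npy2r, Npy4r, Npy5r and Npy6r were listed at 0 in Ppy+ cells. Within the Ppy+ label Npy1r lay in cells with few Ppy UMIs in all 4 mice, at 21.2 against 0.579 CPM. Of the somatostatin receptors, Sstr1 and Sstr3 were highest in ECL cells (30.0 and 24.3 CPM) and Sstr2 in Epsilon cells (10.8 CPM), while Sstr4 was listed at 0 in these labels. Delta cells had Sstr2 at 6.09 CPM and Sstr3 at 12.0 CPM. The receptors were not tested in Ppy+ or Delta cells because too few UMIs were counted, and 0 of the 4 tested in EEC cells were called. Cort, the close relative of Sst, was at 0 in Delta cells.

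Genes that process these precursors were all present. Pcsk2 stood at 1229 CPM in Ppy+ cells and 792 CPM in Delta cells, against 28.1 CPM in Epsilon cells and 2.91 CPM in EEC-Progenitor cells. Pcsk1 stood at 179 CPM in Ppy+ and 125 CPM in Delta cells, and Pcsk1n at 3197 and 840 CPM. Cpe stood at 1133 and 686 CPM, and Pam at 514 and 512 CPM. Isl1 was higher in Delta cells (1566 CPM) than in Ppy+ cells (714 CPM).

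The genes whose level followed each member most closely were ranked by Pearson's correlation of log2(CPM + 1) over 32 pairs of mouse and subtype, among 5953 genes. The 32 points share mice and libraries and differ mainly by subtype, so no p is given. Pyy was first for Ppy (0.88), followed by Hspb8 (0.83), Cd200 (0.82), Tmsb15b2 (0.81) and Abcc8 (0.81). For Pyy the closest were Scg2 (0.91), a granule protein, Abcc8 (0.90), a subunit of the ATP-sensitive potassium channel of islet cells, Rnf138rt1 (0.90), Hspb8 (0.90) and Cltrn (0.90). For Sst the closest were Kcnk2 (0.91), a potassium channel gene, Stxbp6 (0.87), Pcdh15 (0.83), Hhex (0.83) and Auts2 (0.81).

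The promoters of the 2 members that mark the Ppy+ and Delta labels were read from RefSeq (GRCm38.p6), and are shown because each holds 1 of the 2 motifs searched. All 4 members matched a RefSeq promoter by symbol. Searched on both strands for TATAAA (the TATA box) and TGACGTCA (the cAMP response element), with no overlap between matches of the 2 motifs, the 300-base window around each start held TATAAA for Ppy and TGACGTCA for Sst, and neither for Pyy or Npy. Among 32851 promoters of that length, 13.6% held TATAAA and 1.79% held TGACGTCA. The 250 bases before the Ppy start (chr11:102101320-102101569) and 30 bases around the Sst match (chr16:23890874-23890903) follow, both read on the minus strand with the motif in capitals. The Sst match lies before the RefSeq start, but inside the first exon of the longer GENCODE transcript.
Ppy: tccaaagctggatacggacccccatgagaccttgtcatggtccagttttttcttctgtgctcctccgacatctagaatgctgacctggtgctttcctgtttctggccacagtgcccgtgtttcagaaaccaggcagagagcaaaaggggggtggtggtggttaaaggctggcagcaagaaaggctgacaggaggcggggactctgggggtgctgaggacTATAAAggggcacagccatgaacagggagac
Sst: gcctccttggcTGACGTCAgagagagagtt
A match describes these letters only, and no readout of binding was taken in these cells.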

How the data were processed

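The 4 members and the gene lists were chosen with earlier results of these data known. The authors deposited UMI counts per gene and cell for all cells, EYFP+ cells and tuft plus EEC cells, with tables of cell labels; per the submitters' processing notes Cell Ranger 4.0.0, Seurat 3.2.3 and build mm10 were used. Counts of the smaller matrices were checked to equal those of the whole matrix, and 0 columns of other samples were present. CPM is a gene's summed UMIs over all UMIs of a label in a mouse. No length correction applies to 3' UMI counts, which tag each molecule once. UMIs were summed per mouse and label with at least 20 cells per mouse and tested with edgeR 4.0.16 (TMM, filterByExpr, robust quasi-likelihood; R 4.3.3, limma 3.58.1), after a test on simulated counts with known changes. Depth was 72459531 to 103610807 UMIs per mouse. Thinned shares were computed exactly at 1500 UMIs. No doublet caller was run. Values of some listed genes are not reported here. The unlabelled background cells held at least 2 leukocyte marker UMIs and at most 1 endocrine marker UMI. Named genes were the members, the listed genes by role, and the 5 genes most correlated with each member among those with at least 50 CPM in a pair of mouse and subtype. Alternatives were DESeq2 1.42.0, no filter on low counts, no robust option, library sizes without hormone genes, leaving out the 5% of cells with the most UMIs, leaving out each mouse, other UMI thresholds and, added after seeing the data, leaving out cells with shared barcodes.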

Additional observations from a re-analysis of the deposited data

Results flagged for a closer look

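Of 31 levels and shares tested for 1 mouse standing apart from the other 3, 2 did (its gap to the nearest of the others, over the range of all 4, was above Dixon's critical value), where chance gives about 1 in 20 groups. Both concern Sst in EEC-Progenitor cells of mouse 4wk-2. Its level was 35.8 CPM against 6.95, 7.34 and 9.92 CPM in the other 3 mice, and 1.05% of its cells held 10 or more Sst UMIs against 0% in the others. One of 95 cells held 33 of the 42 Sst UMIs (78.6%), so both values rest on the same cell.

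Hormone transcripts were also counted in cells that the authors gave no label. A class of 139 unlabelled cells (25 to 50 per mouse) held 5 or more UMIs of Chga, Chgb, Scg2 and Scg3 and no leukocyte marker UMI. Of these, 14 held 10 or more Ppy UMIs, 33 held 10 or more Pyy UMIs and 19 held 10 or more Sst UMIs, against 3, 8 and 19 of 3428 unlabelled leukocyte-marker cells. Cells with 5 or more such endocrine UMIs and any leukocyte marker UMI fell in neither class. The remaining 4211 unlabelled cells, in neither marker class, held 72, 114 and 160 such cells, which is most of the 89, 155 and 198 among all unlabelled cells, and 61 of those 72 Ppy cells came from mouse 4wk-1. Of the leukocyte-marker cells, all 3 with Ppy came from mouse 4wk-1 and 16 of the 19 with Sst from 4wk-2. All 14 cells with Ppy also held 10 or more Pyy UMIs, as did 15 of the 19 with Sst. Mucin and ductal markers summed to 16196 to 24686 CPM per mouse in these 139 cells, against 365 to 1654 CPM in Ppy+ and 850 to 2327 CPM in Delta cells. No doublet caller was run, and the part of these markers was not tested. The EYFP transcript was seen in 38 of the 139 cells, at a median of 31250 UMIs per cell against 3911 in the 101 without it. Among those 38, 6, 13 and 8 cells held 10 or more UMIs of Ppy, Pyy and Sst, and among the cells without EYFP 8, 20 and 11 did.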

How the results depend on the processing

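No paired analysis was possible because mouse numbers were given in accession order and pair nothing. Of 157 alternative values for the 16 time effects, 136 kept their direction and side of the threshold, 2 lost the call, 7 gained one and 12 turned sign, 11 of them on leaving out 1 mouse. Some of the gained calls also came from leaving out 1 mouse, where the lone mouse gives no spread. Ppy in Ppy+ cells lost its call without the robust option (1.57, adjusted p = 0.185) and without the 5% of cells with the most UMIs (1.78, 0.277). Ppy in EEC cells passed with DESeq2 (2.04) and without a filter on low counts (2.03), and ranged from 1.66 to 2.33 on leaving out a mouse. The same ranges were 0.11 to 0.94 for Pyy and -1.03 to -0.083 for Sst in EEC cells. In Delta cells they were -0.12 to 5.38 for Ppy, -0.46 to 0.47 for Pyy and -0.52 to 0.18 for Sst, and Pyy was 0.34 without the cells with the most UMIs. In ECL cells they were -1.63 to 0.98 for Pyy and -1.62 to 0.97 for Sst, in Epsilon cells -0.65 to 4.33 for Pyy, and in Ppy+ cells -5.98 to 2.91 for Sst. The single values that turned sign were Pyy in ECL 0.98 and 0.02, Sst in ECL -0.49 and -1.62, Pyy in Epsilon -0.65, Sst in Ppy+ 2.91 and 0.39, Sst in Delta 0.18, Ppy in Delta -0.12, and Pyy in Delta 0.34, 0.47 and 0.24.

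Counts of called genes moved more. DESeq2 called 14 genes in EEC, 10 in EEC-Progenitor, 2 in Delta and 1 in Epsilon cells. Without a filter on low counts the count was 74 in EEC, 50 in EEC-Progenitor, 24 in Delta, 22 in Epsilon, 60 in Ppy+ and 54 in ECL cells. Without the robust option it was 1 in Ppy+ and 0 in ECL cells. Leaving out a mouse gave 0 to 366 in EEC, 12 to 195 in EEC-Progenitor, 29 to 50 in Delta, 0 to 244 in Epsilon, 41 to 141 in Ppy+ and 7 to 155 in ECL cells, where the lone mouse is assumed to vary like the others. The cause of these moves was not tested. Pyy in Ppy+ cells was 154099 CPM over UMIs without hormone genes, and cells with both Pyy and Sst in Delta made up 79.2% at 10 or more UMIs. Sst in Ppy+ cells was 919 CPM as a mean of per-cell values against 197 CPM, and Pyy in Epsilon cells 117 CPM without the cells with the most UMIs against 610 CPM. Of 72 alternative levels 70 stayed within 1 SD between mice, and of 45 co-detection values 35 did. Those that stayed include 36 levels and 20 co-detection values from leaving out 1 mouse. Leaving out 1 mouse cannot move these means by 1 SD, so those values show nothing. The 2 levels and 10 co-detection values that moved all came from the other alternatives. The rule was also loose for Pyy in Epsilon cells, where the SD (840 CPM) exceeded the mean (610 CPM).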

Other observations

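Cells with 10 or more Sst UMIs also occurred outside the endocrine labels, with shares that followed time in some classes and not in others. At 10 or more UMIs, Sst was present in 0 of 301, 3 of 293, 35 of 349 (10.0%) and 134 of 1012 (13.2%) of the cells typed Acinar/MucinDuctal in mice 2wk-1, 2wk-2, 4wk-1 and 4wk-2, at a median of 3387, 19556, 2659 and 3555 UMIs per cell. The highest cells held 7, 457, 36 and 186 Sst UMIs. Pyy reached 10 UMIs in 0, 3, 0 and 34 of the same cells. Among cells typed MucinDuctal, 1.08, 0.144, 2.08 and 0.158% reached 10 Sst UMIs, among Acinar cells 0.753, 0.172, 0.262 and 1.91%, and among Ductal-like cells 2.63, 5.36, 0 and 4.55%, so the 2 times overlapped in these 3 labels. In Acinar.Prolif cells 1 cell, of mouse 2wk-1, did. Unlabelled leukocyte-marker cells reached 10 Sst UMIs in 0, 1, 2 and 16 cells, and unlabelled cells in neither the leukocyte-marker nor the endocrine-marker class in 0.589, 0.377, 5.67 and 6.12%. Neither a difference between these classes nor a cause was tested.

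In mouse 2wk-1, cells typed Acinar held 8.60% of all Ppy UMIs and 9.61% of all Pyy UMIs of the library. A single cell held 2019 of the 2217 Ppy UMIs (91.1%) there, and 8017 of the 9023 Pyy UMIs (88.9%) likewise lay in 1 cell.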
